A study of Schizosaccharomyces pombe with 12 samples.

Results

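RNA of fission yeast (Schizosaccharomyces pombe) cells lacking set1 was compared with RNA of wild-type cells, both kept at 30°C. The comparison was defined by genotype and temperature in the labels and rests on 4 of the 12 libraries analysed, 2 of set1Δ cells and 2 of wild-type cells. The other 8 libraries were of set1Δ and wild-type cells at 37°C and of lsd1-ΔHMG cells, whose Lsd1 lacks its C-terminal HMG domain, at 30°C and 37°C. In the set1Δ strain the gene was replaced by a drug-resistance marker, and the study's methods describe 2 independently derived replicates of each genotype. Those methods take 30°C as the permissive temperature for fission yeast and 37°C as heat stress. All libraries were made from RNA of whole cells, and the values are read counts per annotated feature of strand-specific mRNA libraries. Whether reads were split by strand before this counting is uncertain.

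Set1 is the methyltransferase that places methyl groups on lysine 4 of histone H3, a mark found at the start of transcribed genes from yeast to mammals. It works in the COMPASS complex, where WD-repeat and PHD-finger proteins position the enzyme on the nucleosome. In fission yeast Set1 is also known for repressing subsets of genes, among them stress-response genes, genes near chromosome ends, antisense transcripts and Tf2 retrotransposons. The comparison asks which RNAs change without Set1 when cells have not been heated.

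The 4 libraries held 29435146 and 29306221 counts in set1Δ cells and 28023873 and 27642384 counts in wild-type cells. Levels are given as CPM, a count divided by the library total after TMM scaling and multiplied by 1e6, where TMM corrects the total for differences in RNA composition. The TMM factors were 0.763 and 0.754 in set1Δ cells, against 0.958 and 0.964 in wild-type cells. Within a genotype the 2 libraries were close, with a Pearson correlation of log2 CPM across features of 0.998 in each genotype. Features of 1 sample are not independent replicates, so this is a description.

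The wild-type libraries labelled 30°C stood apart from the other conditions in some stress genes, which bears on every fall given here. The 20 heat chaperone genes listed summed to 6542 and 6062 CPM in set1Δ cells, against 57688 and 53690 CPM in wild-type cells at 30°C. The same sum was 14764 and 16180 CPM in wild-type cells at 37°C and 12770 and 13001 CPM in lsd1-ΔHMG cells at 30°C. It was 34760 and 34945 CPM in set1Δ cells at 37°C and 25832 and 25320 CPM in lsd1-ΔHMG cells at 37°C, so in both mutants the sum was higher at 37°C than at 30°C. Wild-type cells labelled 30°C therefore had a larger chaperone sum than wild-type cells labelled 37°C. Most of the sum in wild-type cells at 30°C came from hsp16 (39422 and 36205 CPM) and hsp9 (12912 and 11856 CPM). These were the only 2 of the 20 genes in which both wild-type libraries at 30°C were above the other 10 libraries. The larger sum is thus not a trait of the whole list. Whether this reflects the labels or the state of the cultures cannot be told apart with these libraries. Counts for most gene groups are therefore also given with other cells in place of wild-type cells at 30°C. These were lsd1-ΔHMG cells at 30°C and wild-type cells at 37°C. Wild-type cells at 37°C stood apart too, with the lowest levels of all libraries in some genes. Among these were the glycolysis gene tdh1 (42.4 and 47.5 CPM), the elongation factor gene tef102 (8.49 and 9.61 CPM) and the ergosterol gene erg1 (5.04 and 4.65 CPM). Rises against them are to be read with this in mind.

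Of 6904 features tested, 2252 (32.6%) were called, meaning that the adjusted p was below 0.05 and set1Δ and wild-type cells differed by 1 or more on the log2 scale. Of these, 1454 (21.1%) were higher and 798 (11.6%) were lower in set1Δ. The test was edgeR's quasi-likelihood test on all 12 libraries with Benjamini-Hochberg adjustment. The median log2 fold change over all features was 0.22. With only the 4 libraries compared in the fit, that median was 0.00, 1019 features were higher and 1145 were lower, so the balance of directions depends on the scaling. At a log2 limit of 2, 254 features were higher and 217 were lower, whereas at a limit of 3 the counts were 56 higher and 97 lower, and at a limit of 4 they were 5 higher and 52 lower.

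**Figure D1:**
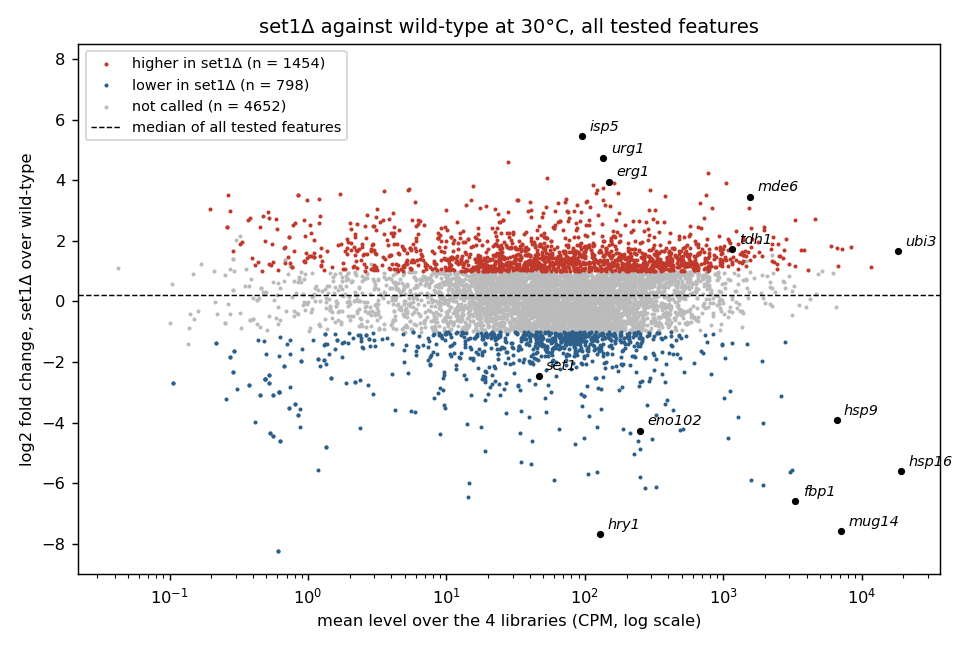
Log2 fold change (set1Δ over wild-type, 30°C) against the mean level over the 4 libraries in CPM on a log axis, 1 point per tested feature. The 1454 features called higher are red, the 798 called lower are blue, the dashed line is the median of 0.22, and the longest excursions lie on the side of the falls.

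The deleted gene was checked first. Reads assigned to set1 (SPCC306.04c) gave 14.4 and 14.3 CPM in set1Δ cells, against 76.7 and 79.8 CPM in wild-type cells. This was a difference of -2.44 on the log2 scale (adjusted p = 1.6e-10 in edgeR, standard error 0.10). Both set1Δ libraries still held reads, 324 and 317 counts against 2060 and 2127 in wild-type, and which part of the locus gave them was not tested. The libraries thus differed in set1 as their labels say.

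The other COMPASS subunits changed by less. None of the 7 was called, and set1 was the only 1 of 8 members past the limit. The WD-repeat subunit swd2 had 19.9 and 18.4 CPM in set1Δ cells, against 37.9 and 37.6 CPM in wild-type cells. Another WD-repeat subunit, swd3, had 26.2 and 22.2 CPM in set1Δ cells and 46.9 and 46.5 CPM in wild-type cells. Their log2 fold changes were -0.98 and -0.95, just inside the limit, and with only the 4 libraries in the fit they were -1.20 and -1.17 and were called. The remaining WD-repeat subunit, swd1, stood at -0.51 and sdc1 at -0.35. The PHD-finger subunit spf1 stood at 0.76, ash2 at 0.77 and shg1 at 0.48, around a list median of -0.43. Without the second set1Δ library, spf1 (1.03) and ash2 (1.01) were called higher. With lsd1-ΔHMG cells at 30°C as the comparison, none of the 8 was higher and 2 were lower, and with wild-type cells at 37°C none was higher and 4 were lower.

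Of the demethylase complex that the study centres on, the PHD-finger genes rose and the demethylase genes were not called. For phf1, levels were 15.2 and 14.9 CPM in set1Δ cells and 4.58 and 4.13 CPM in wild-type cells, so that its log2 fold change was 1.79 (edgeR, adjusted p = 4.7e-06). For phf2, levels were 53.7 and 52.3 CPM in set1Δ cells and 20.4 and 22.4 CPM in wild-type cells, and its log2 fold change was 1.31 (edgeR, adjusted p = 1.1e-06). The groups did not overlap in either gene. Against lsd1-ΔHMG cells at 30°C these genes pointed the other way, at -1.16 for phf1 and -0.95 for phf2, while against wild-type cells at 37°C they stood at 2.90 and 2.04. The demethylase gene lsd1 had 56.8 and 53.0 CPM in set1Δ cells and 46.9 and 49.7 CPM in wild-type cells (log2 fold change 0.19). For lsd2, levels were 38.6 and 38.4 CPM in set1Δ cells and 45.7 and 48.7 CPM in wild-type cells (-0.29, and -0.51 with only the 4 libraries in the fit). The histone H3 lysine 9 methyltransferase gene clr4 had 17.0 and 14.4 CPM in set1Δ cells, overlapping the 14.0 and 14.5 CPM of wild-type cells.

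The 12 protein-coding genes with the largest falls were chosen by size among called genes that had a symbol, a mean of at least 50 counts over the 4 libraries and both set1Δ libraries below both wild-type libraries, so their separation is a description. The unnamed genes SPAC4F10.17 (-6.11) and SPBPB21E7.11 (-6.07), outside this rule and named after their values were seen, fell by more than several of the 12. For the 12 genes, log2 fold changes ran from -7.69 to -4.13, with standard errors up to 0.20 and adjusted p up to 1.1e-09 (edgeR).

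The largest of these falls was in hry1 (SPAC869.06c), which encodes a protein with a cation-binding HHE domain. It had 1.43 and 1.04 CPM in set1Δ cells, against 275 and 236 CPM in wild-type cells. For mug14 (SPBC359.06), annotated as an adducin-like protein, levels were 73.7 and 72.3 CPM in set1Δ cells and 14875 and 13233 CPM in wild-type cells. The log2 fold changes were -7.69 for hry1 and -7.59 for mug14, and in both genes the wild-type libraries were far above the set1Δ libraries. An annotated non-coding RNA, SPNCRNA.1314, shares its strand with mug14, so the counts of mug14 may hold reads of that RNA or lack some of its own.

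Carbon-source genes came next. Fructose-1,6-bisphosphatase, the gluconeogenic enzyme encoded by fbp1 (SPBC1198.14c), had 69.1 and 66.4 CPM in set1Δ cells, against 7009 and 6117 CPM in wild-type cells. The gluconate transporter gene ght3 (SPAC1F8.01) had 6.95 and 8.24 CPM in set1Δ cells and 582 and 499 CPM in wild-type cells. The second enolase gene, eno102 (SPBPB21E7.01c), had 28.5 and 21.2 CPM in set1Δ cells and 515 and 444 CPM in wild-type cells. Their log2 fold changes were -6.60, -6.15 and -4.27. The invertase gene inv1, which is repressed by glucose in wild-type fission yeast, had 15.3 and 13.8 CPM in set1Δ cells and 212 and 186 CPM in wild-type cells (log2 fold change -3.77, adjusted p = 3.2e-11 from edgeR), but against wild-type cells at 37°C it stood at 0.12.

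The small heat shock protein gene hsp16 (SPBC3E7.02c) had 829.7 and 727 CPM in set1Δ cells, against 39422 and 36205 CPM in wild-type cells (log2 fold change -5.60, standard error 0.20, adjusted p = 3.1e-11 from edgeR). Its share of all counts was 0.0633% and 0.0548% in set1Δ libraries, against 3.78% and 3.49% in wild-type libraries. The remaining genes of the 12 were cum1 (log2 fold change -4.86), mrpl20 (-4.53), pcm2 (-4.33), prl65 (-4.24), hsp3101 (-4.20) and mug108 (-4.13). Of these, pcm2 encodes an enzyme that repairs isoaspartate residues in ageing proteins, and hsp3101 encodes a glyoxalase that needs no glutathione. The mitochondrial ribosomal protein gene mrpl20 overlaps SPCC1393.12 on its own strand, which had 128 and 109 CPM in set1Δ cells and 6486 and 5379 CPM in wild-type cells. The value of mrpl20 is therefore uncertain, and the same holds for mug108, which overlaps another gene on its strand.

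In all 12 of these genes both wild-type libraries at 30°C were higher than the other 10 libraries. In 6 of them both set1Δ libraries at 30°C were also lower than the other 10. Against lsd1-ΔHMG cells at 30°C, 11 of the 12 were called lower in set1Δ, and against wild-type cells at 37°C, 7 were. The fall of hsp16 was -1.51 against lsd1-ΔHMG at 30°C and -2.73 against wild-type at 37°C, and that of fbp1 was -3.44 and -1.72. For hry1 the value against wild-type at 37°C was -0.88, and for eno102 it was -0.40. The size of these falls thus depended strongly on which libraries set1Δ was compared with.

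The 12 protein-coding genes with the largest rises were chosen by size in the same way, and their log2 fold changes ran from 3.18 to 5.45, with standard errors up to 0.19 and adjusted p up to 2e-09 (edgeR).

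The amino acid transporter gene isp5 (SPAC1039.09) rose most. It had 186 and 188 CPM in set1Δ cells, against 4.13 and 4.39 CPM in wild-type cells, a log2 fold change of 5.45. Across the other 4 conditions isp5 ran from 6.52 to 12.6 CPM, so set1Δ at 30°C stood alone. The gene with the next systematic number, mmf2 (SPAC1039.10), had 306 and 335 CPM in set1Δ cells and 27.0 and 26.1 CPM in wild-type cells (log2 fold change 3.59).

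Genes named for regulation by uracil followed. A GTP cyclohydrolase gene, urg1 (SPAC1002.19), had 265 and 261 CPM in set1Δ cells and 10.2 and 9.46 CPM in wild-type cells (log2 fold change 4.74). From the same locus, urg2 (SPAC1002.17c), a predicted uracil phosphoribosyltransferase gene, had 223 and 232 CPM in set1Δ cells and 17.3 and 17.9 CPM in wild-type cells (log2 fold change 3.69). A gene of uracil salvage in the same region of chromosome I, uck2 (SPAC1399.04c), had 126 and 139.8 CPM in set1Δ cells and 13.3 and 11.9 CPM in wild-type cells (log2 fold change 3.40). The gene urg3, of the same name family, was not called: it had 74.7 and 72.5 CPM in set1Δ cells and 55.2 and 54.6 CPM in wild-type cells, a log2 fold change of 0.42. A cytosine deaminase gene without a symbol, SPCC965.14c, named here after its value was seen, had 533 and 560.4 CPM in set1Δ cells and 40.0 and 44.9 CPM in wild-type cells (log2 fold change 3.69).

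Squalene monooxygenase, an oxygen-dependent enzyme of ergosterol synthesis encoded by erg1 (SPBC713.12), had 278 and 287 CPM in set1Δ cells and 17.8 and 18.7 CPM in wild-type cells (log2 fold change 3.95). The alanine racemase gene alr2 (SPBC359.02) had 287 and 321 CPM in set1Δ cells and 19.3 and 20.9 CPM in wild-type cells (log2 fold change 3.92). The kelch-repeat gene mde6 (SPAC15A10.10), named as a target of the meiotic factor Mei4, was the most abundant of the 12 in set1Δ cells. It had 2834 and 2929 CPM in set1Δ cells and 273 and 250.0 CPM in wild-type cells (log2 fold change 3.46). The others were mug114 (log2 fold change 3.81), cuf2, a copper-responsive transcription factor of meiosis (3.37), izh2 (3.25) and krp1, the kexin-type processing protease (3.18).

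In 10 of the 12 risers both set1Δ libraries at 30°C were higher than the other 10 libraries, and the exceptions were erg1 and krp1. In 1 of the 12 both wild-type libraries at 30°C were the lowest of all. Against wild-type cells at 37°C all 12 were called higher in set1Δ, and against lsd1-ΔHMG cells at 30°C 9 were, with mug114 at 0.53, krp1 at -0.51 and erg1 at -0.60.

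**Figure D2:**
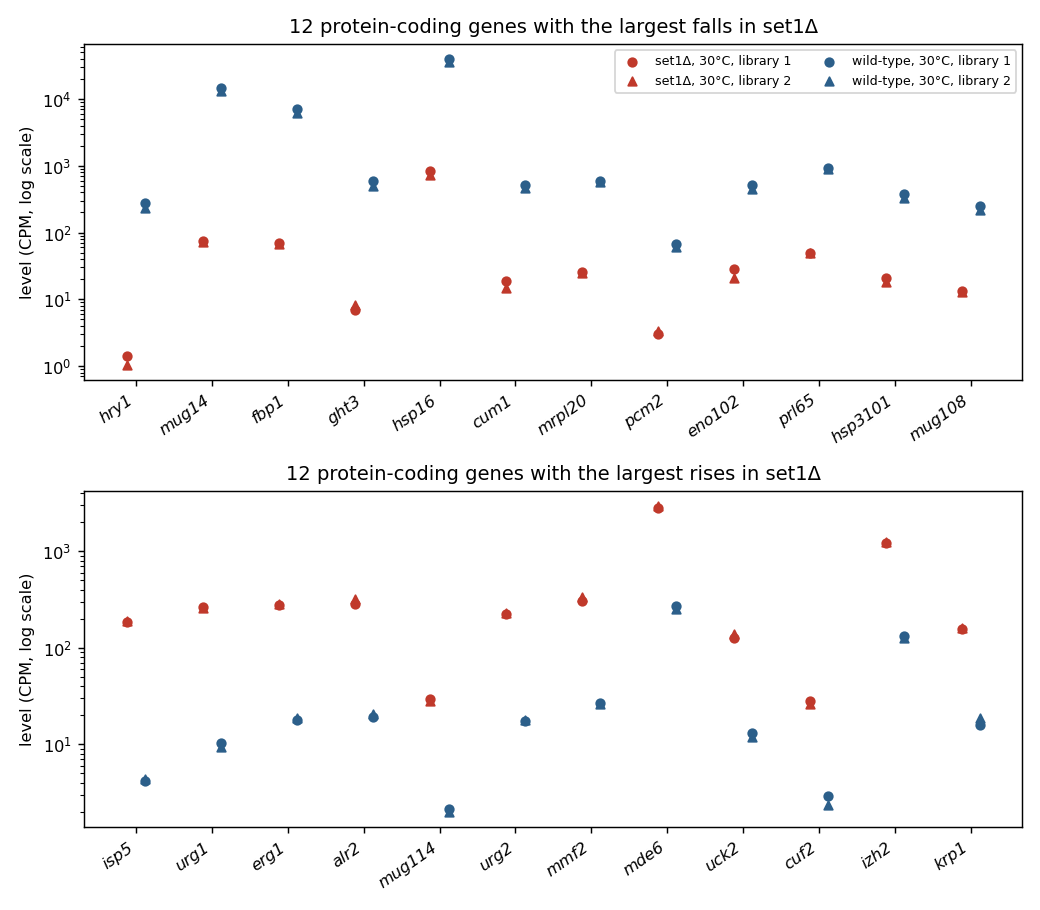
Level of the 12 protein-coding genes with the largest falls (top) and the 12 with the largest rises (bottom), in CPM on a log axis, with circles and triangles for the 2 libraries of set1Δ (red) and wild-type cells (blue) at 30°C. Libraries of 1 genotype lie close together beside the gap between genotypes, which is widest for hry1 at a log2 fold change of -7.69.

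Over all calls the same reading gave a difference between directions. Among the 798 features called lower, 352 (44.1%) had both wild-type libraries at 30°C above the other 10 libraries, against 10.1% of all tested features. In 420 of the 798 (52.6%), both set1Δ libraries were below the other 10, against 16.9% of all tested features. Among the 1454 features called higher, 827 (56.9%) had both set1Δ libraries above the other 10, against 24.5% of all tested features. In 162 (11.1%) both wild-type libraries at 30°C were below the other 10, near the 8.88% of all tested features. The calls used the same 4 libraries, which fixes part of these shares. Against wild-type cells at 37°C, 1170 of the 1454 features (80.5%) were again called higher and 408 of the 798 (51.1%) again lower, where 30.3% of all features were called higher, 14.1% lower and 44.4% in either direction. In the opposite direction, 3 of the 1454 and 69 of the 798 were called. The wild-type libraries at 37°C were themselves low in some of the risers, and their part in the 1170 was not tested. Against lsd1-ΔHMG cells at 30°C, 735 (50.6%) were again higher and 271 (34.0%) again lower, where 25.5% of all features were called higher, 19.4% lower and 44.9% in either direction, and 204 of the 1454 and 26 of the 798 were called in the opposite direction. These comparisons share the set1Δ libraries, so their calls are not independent.

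**Figure D3:**
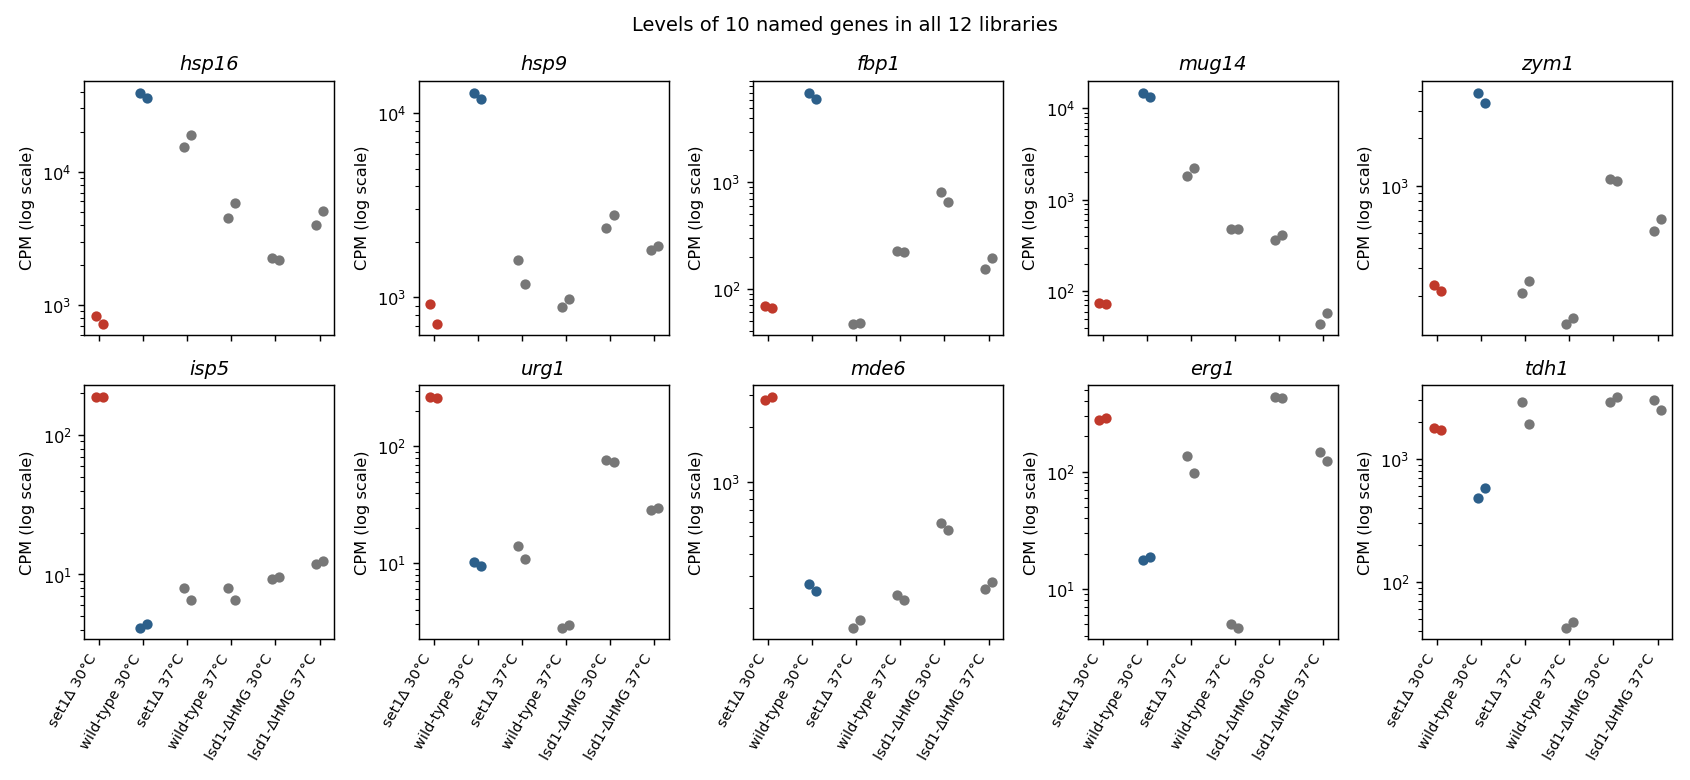
CPM on a log axis, with its own range in each panel, of 5 genes that fell (top) and 5 that rose (bottom) in all 12 libraries, with set1Δ at 30°C in red, wild-type at 30°C in blue and the other 4 conditions in grey. For hsp16, hsp9, fbp1, mug14 and zym1 the wild-type libraries at 30°C are the highest, while for isp5, urg1 and mde6 the set1Δ libraries at 30°C are the highest.

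Gene groups were then described by how many members passed the test, beside 21.1% higher, 11.6% lower and a median log2 fold change of 0.22 over all features. Some genes, such as fbp1 and isp5, belong to more than 1 group, so the counts of different groups are not independent. Of 20 heat chaperone genes, 4 fell, 1 rose and 15 were not called, with a median of -0.12. Besides hsp16, the fallers were hsp9, with 920.4 and 721 CPM in set1Δ cells and 12912 and 11856 CPM in wild-type cells (log2 fold change -3.92), ssa1, a cytosolic Hsp70 (-1.94), and hsp20 (-1.89). The disaggregase gene hsp104 had 43.7 and 44.1 CPM in set1Δ cells and 86.4 and 84.8 CPM in wild-type cells, a log2 fold change of -0.96 just inside the limit. The only rise was in sks2 (1.27), a ribosome-associated Hsp70, and it was not called with the offsets for GC content described below. The heat shock factor gene hsf1 stood at 0.63 and the Hsp90 gene hsp90 at -0.17, and the largest falls of the list were in hsp16 and hsp9. With the offsets, and also with only the 4 libraries in the fit, 6 of the 20 were lower, hsp104 among them (-1.51 with the offsets). The list gave 0 higher and 11 lower against lsd1-ΔHMG cells at 30°C, and 2 higher and 7 lower against wild-type cells at 37°C, where hsp9 stood at -0.18.

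Among 22 genes of the Sty1-Atf1 stress pathway, whose MAP kinase Sty1 phosphorylates the transcription factor Atf1, 6 fell and 3 rose, with a median of 0.04. After fbp1 the deepest fall was in zym1, the metallothionein gene, which had 232 and 215 CPM in set1Δ cells and 3910.1 and 3374 CPM in wild-type cells (log2 fold change -4.03). The nuclear envelope gene ish1 (-2.51), the Sty1 phosphatase gene pyp2 (-2.41), gpx1, a glutathione peroxidase gene (-1.38), and rds1 (-1.13) also fell. The kinase gene sty1 stood at -0.41 and atf1 at -0.64, neither called. The risers were plb1 (2.16), the calcium pump gene cta3 (1.38) and pcr1, which encodes the partner of Atf1. These counts depended on the cells compared: against wild-type cells at 37°C 11 of the 22 were higher and 1 was lower, with zym1 at 0.70 and pyp2 at 0.73, and against lsd1-ΔHMG cells at 30°C none was higher and 14 were lower. Among 16 genes of the Pap1 oxidative stress response, 6 rose and 2 fell. The regulators prr1 (1.85) and pap1 (1.28), the thioredoxin reductase gene trr1 (1.52) and the thioredoxin peroxidase gene tpx1 (1.09) were among the risers, while the mitochondrial superoxide dismutase gene sod2 had 262 and 264 CPM in set1Δ cells and 1427 and 1325 CPM in wild-type cells (-2.39). With the offsets 3 of the 16 were higher and 2 lower, and with only the 4 libraries in the fit 4 were higher and 3 lower. The same genes gave 10 higher and 3 lower against wild-type cells at 37°C, and 4 higher and 4 lower against lsd1-ΔHMG cells at 30°C.

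Of 15 glucose-repressed genes and their regulators, 4 fell and 3 rose. The fallers were fbp1, ght3, inv1 and the maltase gene agl1 (-2.99), and the risers were the hexose transporter gene ght8 (1.76), the repressor gene scr1 (1.23) and mae2 (1.17). With the offsets 1 was higher and 5 were lower. Wild-type cells at 37°C as the comparison gave 8 higher and 2 lower, with agl1 at 0.06, and lsd1-ΔHMG cells at 30°C gave 0 higher and 9 lower. Genes of glycolysis and fermentation had the highest median of the protein-coding groups, at 1.49, with 11 of 17 called higher and 2 lower. The glyceraldehyde-3-phosphate dehydrogenase gene tdh1 had 1803 and 1723 CPM in set1Δ cells and 485 and 580.1 CPM in wild-type cells (log2 fold change 1.73), and the main enolase gene eno101 had 1129 and 1037 CPM in set1Δ cells and 299.5 and 357 CPM in wild-type cells (1.72). The fallers were eno102 and pdc201 (-1.87). These rises did not pass with offsets for GC content and gene length, under which 0 of the 17 were called higher and the median was 0.66. The genes of this group had a median GC content of 46.3%, against 36.5% over all tested features with a value. Against lsd1-ΔHMG cells at 30°C, 12 of the 17 were called lower in set1Δ and none higher, while against wild-type cells at 37°C 12 were higher and none lower.

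Translation genes showed the same dependence. Of 8 elongation factor genes, 5 rose and 1, tif51 (-1.40), fell, and with the offsets 0 rose. Without the first wild-type library 3 rose, and with only the 4 libraries in the fit 2 did. Elongation factor genes gave 0 higher and 5 lower against lsd1-ΔHMG cells at 30°C, and against wild-type cells at 37°C 6 were higher and 1 lower. Of 141 ribosomal protein genes, 46 rose, none fell below the limit and the median was 0.76, whereas with the offsets 10 rose, 9 fell and the median was 0.27. With only the 4 libraries in the fit 29 rose and 1 fell. The comparison with lsd1-ΔHMG cells at 30°C gave 27 higher and 3 lower, and that with wild-type cells at 37°C 42 higher and 13 lower. Examples were rps2401, with 9342 and 9551 CPM in set1Δ cells and 2491 and 2777 CPM in wild-type cells (log2 fold change 1.84), and rpl4102, with 1431 and 3056 CPM in set1Δ cells and 463 and 592 CPM in wild-type cells. The set1Δ libraries differed from each other in rpl4102, whose log2 fold change of 2.09 had a standard error of 0.78 (adjusted p = 0.042 from edgeR). Many ribosomal protein genes have near-identical copies, so counts of single copies are uncertain.

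Ergosterol genes rose in more cases than they fell, also with the offsets. Fission yeast makes ergosterol in place of cholesterol, and its SREBP factor Sre1 raises oxygen-dependent steps of the pathway when sterols or oxygen run low. Of 20 genes, 11 rose and 1 fell, with a median of 1.29, and with the offsets 9 rose, 1 fell and the median was 0.97. After erg1, the largest rises were in erg31 with 270.2 and 276 CPM in set1Δ cells and 28.9 and 32.8 CPM in wild-type cells (log2 fold change 3.15). The lanosterol demethylase gene erg11 had 518 and 520.5 CPM in set1Δ cells and 60.3 and 67.2 CPM in wild-type cells (3.03). The heme synthesis gene hem13, also oxygen-dependent, had 592 and 545 CPM in set1Δ cells and 72.8 and 66.5 CPM in wild-type cells (3.03). The factor gene sre1 itself rose by less (1.07), and erg32, which like erg31 encodes a C-5 sterol desaturase, fell, with 46.0 and 46.8 CPM in set1Δ cells and 144 and 147 CPM in wild-type cells (-1.65). The paralogs erg31 and erg32 thus went in opposite directions. Against lsd1-ΔHMG cells at 30°C, 2 of the 20 genes were called higher and 3 lower, and against wild-type cells at 37°C, 13 were higher and 1 lower.

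Among 17 nitrogen starvation genes, 8 rose and 2 fell, and 7 rose and 2 fell with the offsets. Nitrogen genes gave 3 higher and 6 lower against lsd1-ΔHMG cells at 30°C, and 9 higher and 1 lower against wild-type cells at 37°C. After isp5, the proline-use genes put1 (2.74) and put2 (1.99) and the ammonium transporter gene amt1 (2.01) rose most. The proline dehydrogenase gene put1 had 547 and 531 CPM in set1Δ cells and 81.0 and 80.4 CPM in wild-type cells. It shares its strand with SPCC70.04c, so its count is less certain. The meiotic regulator gene mei2 (-1.21) and the permease gene per1 (-1.14) fell. Of 26 amino acid permease and biosynthesis genes, 9 rose and 1 fell, among them arg1 (1.88), sam1 (1.71) and arg4 (1.69). With the offsets 6 rose and 2 fell. Amino acid genes gave 1 higher and 9 lower against lsd1-ΔHMG cells at 30°C, and against wild-type cells at 37°C 11 were higher and 1 lower.

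More mating and meiotic genes rose than fell. Of 16 mating and pheromone genes, 6 rose and none fell, and with the offsets the counts were the same. Mating genes gave 1 higher and 6 lower against lsd1-ΔHMG cells at 30°C, and 5 higher and none lower against wild-type cells at 37°C. The M-factor precursor gene mfm2 had 1128 and 1216 CPM in set1Δ cells and 204 and 234 CPM in wild-type cells (log2 fold change 2.42), and the P-factor receptor gene mam2 had 169 and 171 CPM in set1Δ cells and 42.0 and 34.2 CPM in wild-type cells (2.16). The regulator gene ste11, which switches on mating genes, had 103 and 110.2 CPM in set1Δ cells and 43.6 and 43.5 CPM in wild-type cells (1.29). Both genotypes carried M mating-type RNA, as mat1-Mc had 14.5 and 15.1 CPM in set1Δ cells and 16.1 and 17.7 CPM in wild-type cells. This gene alone does not show whether P cells were also present, and the study's strain list holds strains of more than 1 mating type. Of 26 meiotic genes, 8 rose and 1 fell, and with the offsets 6 rose and 1 fell. Meiotic genes gave 4 higher and 7 lower against lsd1-ΔHMG cells at 30°C, and 7 higher and none lower against wild-type cells at 37°C. The meiotic septin gene spn5 rose by 2.44 and the axis protein gene rec10 by 1.71, as did mmi1 (2.17), whose product removes meiotic transcripts from growing cells. The meiotic factor gene mei4 stood at 0.61 and was not called.

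Chromatin genes and repeats followed. Of 20 heterochromatin factor genes, 5 rose (tlh2, tlh1, chp1, epe1 and ago1) and 1, cul4 (-1.36), fell, shares close to those of all features. With the offsets 3 rose and 1 fell. The list gave 4 higher and 7 lower against lsd1-ΔHMG cells at 30°C, and 4 higher and 3 lower against wild-type cells at 37°C. The telomere-linked helicase genes tlh1 and tlh2 are near-identical, and their counts were low, at 92 and 84 reads for tlh1 in set1Δ cells against 34 and 37 in wild-type cells. Their log2 fold changes were 1.57 and 1.70. Of 13 Tf2 retrotransposons, all had positive fold changes, from 0.25 to 1.05 with a median of 0.64, and 1, Tf2-7, was called. It was not called with only the 4 libraries in the fit (0.83) or with the offsets, and without the second set1Δ library 3 were called higher. Against wild-type cells at 37°C none of the 13 was called, and against lsd1-ΔHMG cells at 30°C 1 was lower. Tf2 copies are near-identical, so reads could have been shared among them. None of 11 histone genes was called in the fit over all 12 libraries with edgeR, where hht3 stood at -0.97 and hhf3 at 0.74. With only the 4 libraries compared, 1 of them, hht3 (-1.20), was called lower. Histone genes gave 3 higher and 3 lower against lsd1-ΔHMG cells at 30°C, and 4 higher and none lower against wild-type cells at 37°C.

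Among smaller groups, 4 of 17 iron genes rose and 4 fell, with 3 higher and 9 lower against lsd1-ΔHMG cells at 30°C and 7 higher and 2 lower against wild-type cells at 37°C. Of 12 phosphate and thiamine genes 3 rose, led by the acid phosphatase gene pho1 (2.20). With the offsets pho1 was the only 1 called higher, and against lsd1-ΔHMG cells at 30°C none was higher and 5 were lower, with pho1 at -1.65. Phosphate and thiamine genes gave 5 higher and 1 lower against wild-type cells at 37°C. Of 13 flocculin and adhesin genes 5 rose and 3 fell, with pfl2 at 1.72 and pfl7 at -2.55. With the offsets 2 were higher and 4 lower, and pfl2 stood at 0.83. Flocculin genes gave 0 higher and 8 lower against lsd1-ΔHMG cells at 30°C, and 5 higher and 3 lower against wild-type cells at 37°C. Of 20 cell wall genes 4 rose, led by the glucan synthase gene bgs1 (2.20), and without the second set1Δ library 7 did. Cell wall genes gave 0 higher and 6 lower against lsd1-ΔHMG cells at 30°C, and 7 higher and 1 lower against wild-type cells at 37°C. Of 22 proteasome and ubiquitin genes 4 rose and 2 fell, the largest rise being in the ubiquitin fusion gene ubi5, at 12962 and 12952 CPM in set1Δ cells and 3442 and 3987 CPM in wild-type cells (1.80). Proteasome genes gave 5 higher and 1 lower against lsd1-ΔHMG cells at 30°C, and 6 higher and 2 lower against wild-type cells at 37°C. Of 14 genes listed as targets or subunits of the G1/S factor MBF, the subunit gene cdc10 (1.18) rose and cdt1 (-1.49) fell. MBF genes gave 1 higher and 7 lower against lsd1-ΔHMG cells at 30°C, and 3 higher and 2 lower against wild-type cells at 37°C. The auxotrophic marker genes leu1 (1.48) and ura4 (1.26) were called and ade6 (0.57) and his2 (-0.75) were not. With the offsets leu1 stood at 0.80 and was not called, and his2 stood at -1.20 and was called lower. Marker genes gave 1 higher and 2 lower against lsd1-ΔHMG cells at 30°C, and 2 higher and none lower against wild-type cells at 37°C. The study's strain list gives different ade6 and his2 alleles to different strains. It also gives many of them a ura4+ reporter at the outer centromeric repeat, so ura4 reads may come from that copy. The part of strain construction in these values was not tested.

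**Figure D4:**
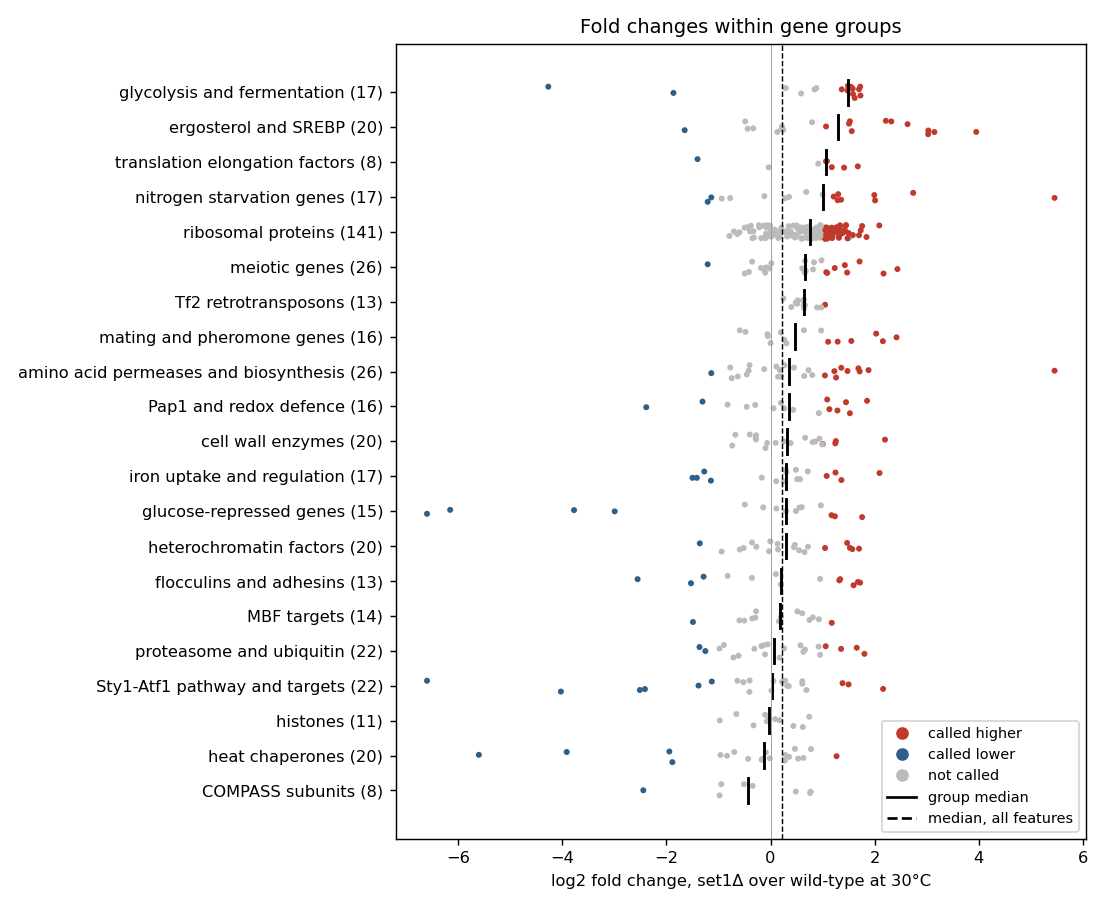
Log2 fold change (set1Δ over wild-type, 30°C) of each tested member of 21 gene groups, with the number tested in brackets, red for called higher, blue for called lower and grey for not called. Group medians (black bars) run from 1.49 for glycolysis and fermentation to -0.43 for COMPASS subunits, beside 0.22 for all features (dashed line).

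RNA classes were described in the same way. The study's methods name an mRNA library type, so small nucleolar, transfer and ribosomal RNAs may have been captured only in part. Whether their values follow RNA levels or capture was not tested. Of 5105 protein-coding genes tested, 982 (19.2%) rose and 484 (9.48%) fell. Small nucleolar RNAs, which guide modification of ribosomal RNA, rose in 38 of 63 cases and fell in 3, with a median of 1.51, and with the offsets 34 rose and 3 fell. They gave 31 higher and 4 lower against lsd1-ΔHMG cells at 30°C, and 35 higher and 1 lower against wild-type cells at 37°C. The box H/ACA RNA snR33 had 103 and 126 CPM in set1Δ cells and 17.7 and 18.7 CPM in wild-type cells (log2 fold change 2.66), while snoU14 had 101 and 98.6 CPM in set1Δ cells and 231 and 204 CPM in wild-type cells (-1.12). In 41 of the 63 both set1Δ libraries were above the other 10, against 24.5% of all tested features. Of 36 transfer RNA features that passed the filter, out of 171, 28 fell and 1 rose. In 27 of the 36, however, both wild-type libraries at 30°C were above the other 10, against 10.1% of all tested features. Against lsd1-ΔHMG cells at 30°C 5 were called lower. Against wild-type cells at 37°C none was lower and 12 were called higher, so the direction for transfer RNAs depends on the wild-type libraries used. The copies are short and near-identical and their counts were low, so these values are uncertain. Of 40 ribosomal RNA features, 20 rose and 7 fell, and with the offsets 7 rose and 11 fell. Ribosomal RNAs gave 15 higher and 2 lower against lsd1-ΔHMG cells at 30°C, and 35 higher and none lower against wild-type cells at 37°C.

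Long non-coding RNAs were split by position. Of 842 that are antisense to a coding gene, 150 (17.8%) rose and 129 (15.3%) fell, with a median of 0.08. Whether the counts separate the strands is uncertain, so counts of antisense RNAs may hold reads of the coding gene opposite. Of 554 others, 184 (33.2%) rose and 81 (14.6%) fell, with a median of 0.41. Against lsd1-ΔHMG cells at 30°C, 276 of the 842 were higher and 92 lower, and 254 of the 554 were higher and 52 lower. With wild-type cells at 37°C as the comparison, 195 of the 842 were higher and 156 lower. Of the 554, 185 were then higher and 73 lower. The 5 largest rises were in prl15, SPNCRNA.1378 (4.24), SPNCRNA.1299 (4.07), SPNCRNA.1095 (3.90) and SPNCRNA.606 (3.84). The RNA prl15 had 54.4 and 51.8 CPM in set1Δ cells and 2.46 and 1.91 CPM in wild-type cells, and between 0.959 and 1.90 CPM in the other 4 conditions. The RNA SPNCRNA.1095 had 1783 and 2154 CPM in set1Δ cells and 133 and 131 CPM in wild-type cells. All 5 had both set1Δ libraries at 30°C above the other 10 libraries, and SPNCRNA.1378 shares its strand with a coding gene, which makes its count uncertain. On the other strand prl15 overlaps SPBC27B12.05, SPNCRNA.606 overlaps SPAC1F8.05 and SPNCRNA.1378 overlaps SPBC947.15c, so reads of those genes may be included. The 5 largest falls were in SPNCRNA.549 (-5.98), prl32 (-5.79), SPNCRNA.540 (-4.69), SPNCRNA.603 (-4.37) and SPNCRNA.452 (-4.16). Of these, prl32 overlaps SPCC417.15 and SPCC417.16 on its strand and SPNCRNA.540 overlaps SPBC3E7.17, so only part of their reads may be their own. The others were at 11 or 9 counts (SPNCRNA.549), 27 or 10 (SPNCRNA.603) and 8 or 3 (SPNCRNA.452) in the 2 set1Δ libraries.

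**Figure D5:**
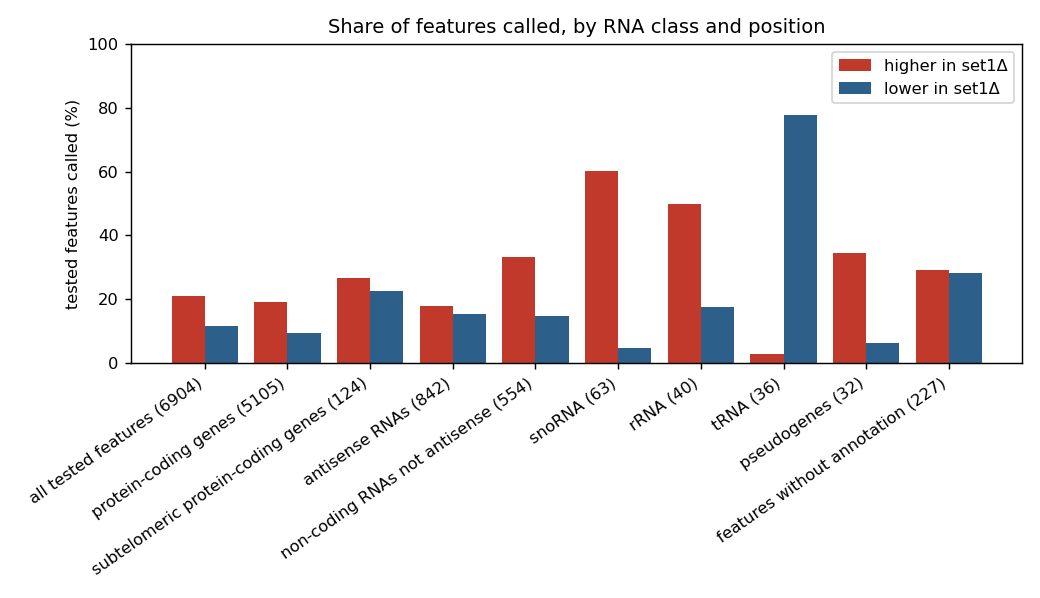
Percent of tested features called higher (red) and lower (blue) in set1Δ against wild-type cells at 30°C, by RNA class and, for protein-coding genes, by position within 100 kb of an end of chromosome I or II, with the number tested in brackets. Small nucleolar RNAs have 60.3% called higher and transfer RNAs 77.8% called lower, in libraries that the study's methods describe as mRNA libraries.

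Protein-coding genes near the ends of chromosomes I and II were called more often than other protein-coding genes, a difference that was not tested. Of 124 within 100 kb of an end of chromosome I or II, 33 (26.6%) rose and 28 (22.6%) fell, against 19.2% and 9.48% of all protein-coding genes. Some of the risers had near-equal values. In set1Δ cells SPBPB10D8.04c had 1920 and 2003 CPM and SPBPB10D8.07c 2058 and 2175 CPM, with log2 fold changes of 1.55 and 1.54. Reads could have been shared among such genes, so their rises may not be separate. Calls were found in 44.1% of 34 genes in the outer 50 kb of chromosome I and 53.1% of 32 in the next 50 kb, and in 42.9% of 28 and 56.7% of 30 on chromosome II. Beyond 200 kb the share was 28.0% on chromosome I and 27.8% on chromosome II. On chromosome III, not counted among the 124, the share was 36.4% of 22 genes in the outer 50 kb, 20.9% of 43 in the next 50 kb and 29.1% beyond 200 kb. Against wild-type cells at 37°C 51 of the 124 were higher and 9 lower, and against lsd1-ΔHMG cells at 30°C 53 were higher and 31 lower, so the number of falls depended on the wild-type libraries used. Falls came in neighbouring genes: a run of 4 adjacent genes, SPAC869.09, pcm2, mel1 and hry1, fell by 3.65 to 7.69 on the log2 scale. A second run, eno102, SPBPB21E7.02c, SPBPB21E7.10 and SPBPB21E7.11, fell by 4.27 to 6.07. In every gene of both runs, both wild-type libraries at 30°C were above the other 10. Against wild-type cells at 37°C the first run stood at -0.94, -1.77, -1.14 and -0.88, in the order named. The second stood at -0.40, -0.61, 0.01 and -0.69, all short of the limit of 1. On opposite strands SPBPB21E7.10 and SPBPB21E7.11 overlap, so they may share reads. Close to the first run, SPAC869.04, SPAC869.03c, yhb1 and SPAC869.01 rose by 1.59 to 3.29. In 38 of the 124 genes both wild-type libraries at 30°C were above the other 10, where this held for 695 of all 6904 tested features (10.1%). In 39 of the 124 both set1Δ libraries were above the other 10, where this held for 1689 of all tested features (24.5%). Positions came from the ASM294v3 annotation, and the files were made on ASM294v2. The longest runs of adjacent called genes anywhere had 5 members, both on chromosome III and both of rises, from aly3 to cuf2 and from acs1 to SPCC191.06.

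Across 5105 protein-coding genes, the log2 fold change had a Pearson correlation of 0.112 with GC content and 0.005 with the log of gene length. With offsets that remove each library's trend with these properties, 1171 features were higher and 890 were lower, and 1819 of the 2252 calls were made again in the same direction. The correlation with GC content was then -0.006. With the offsets hry1 stood at -7.54, fbp1 at -6.44 and hsp16 at -5.45, while tdh1 stood at 0.85 and urg1 at 4.08. What part of the GC trend belongs to the libraries and what part to the cells was not tested.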

How the data were processed

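RNA was measured in 12 strand-specific mRNA libraries, 2 per genotype and temperature, of which 4 are compared here. Per the labels and the study's methods, the authors trimmed 150 bp paired reads with Trimmomatic 0.39 and aligned them to ASM294v2 with STAR. They counted genes with featureCounts with fractional assignment, and for a stranded analysis they filtered reads by strand with SAMtools. Those methods do not say whether the counts used here came from reads split by strand. A count may therefore hold reads of the other strand. The deposited values are expected counts (not all whole), which were rounded here. A further 22 value columns of the table belong to no sample given and were not used. Columns were matched to samples by name.

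Features were filtered with filterByExpr, scaled by TMM and tested with edgeR 4.0.16 (R 4.3.3) in a quasi-likelihood fit over all 12 libraries with 1 mean per condition. A feature was called at a Benjamini-Hochberg adjusted p below 0.05 and an absolute log2 fold change of 1 or more. Standard errors were taken from the fold change and its F statistic. The authors used limma-voom, which was run as an alternative (limma 3.58.1), as was DESeq2 1.42.0. Other alternatives changed the scaling, filter, rounding, libraries, thresholds and replicate block, or added offsets for GC content and gene length. Comparisons of set1Δ with lsd1-ΔHMG at 30°C and wild-type at 37°C were added after the data were seen. The fitting script was tested on simulated data. Tables were made with Python 3.11.15, pandas 2.3.3 and numpy 2.4.6, and figures with matplotlib 3.10.9. No sequence is printed.

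Names, strand overlaps, positions, GC content and lengths came from RefSeq ASM294v3, matched by identifier for 6850 of 7268 features (94.2%). Named genes were set1 and COMPASS, the 12 largest rises and 12 largest falls among called, non-overlapping protein-coding genes with a symbol and a mean of at least 50 counts, 5 non-coding RNAs each way by the same rule, up to 4 leading members of each list, and defining genes; further list members are named where a count is spelled out. The members and lists were chosen with earlier results of these data known, and list entries whose symbol belongs to another gene were corrected after the products were read. Library totals ran between 27642384 and 34843653 counts, so counting error is small for abundant genes and large for features with few reads, and with 2 libraries per condition the p-values rest on the spread among these replicates.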

Additional observations from a re-analysis of the deposited data

Results flagged for a closer look

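The log2 fold change of set1Δ over wild-type cells differed between temperatures for 5 of the 6 protein-coding genes examined. These 6 had the 3 largest rises and the 3 largest falls at 30°C. The remaining gene, erg1, did not meet the same limits, with a log2 fold change of 3.95 at 30°C and 4.59 at 37°C. The test was the interaction term in the same edgeR fit, given as the log2 fold change at 37°C minus that at 30°C. All of these values include the wild-type libraries at 30°C, which stand apart in some stress genes, and why they do was not tested. The genes were chosen for extreme values at 30°C and tested with the same libraries, which favours a difference towards 0 at 37°C, so the count of 5 is a description.

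The permease gene isp5 had a log2 fold change of 5.45 at 30°C and -0.00 at 37°C, a difference of -5.46 (adjusted p = 4.6e-11). For urg1 the values were 4.74 at 30°C and 2.10 at 37°C, a difference of -2.64 (adjusted p = 2.2e-08). The adducin-like gene mug14 turned direction, at -7.59 at 30°C and 2.08 at 37°C, a difference of 9.67 (adjusted p = 8.9e-12). For hry1 the values were -7.69 and -0.77, a difference of 6.92 (adjusted p = 2.4e-10), and for fbp1 they were -6.60 and -2.24, a difference of 4.35 (adjusted p = 4.1e-10). In set1Δ cells hry1 had 1.43 and 1.04 CPM at 30°C and 1.51 and 1.16 CPM at 37°C. In wild-type cells it had 275 and 236 CPM at 30°C and 2.37 and 2.15 CPM at 37°C. The wild-type level of fbp1 also changed far more between temperatures than its set1Δ level. In isp5 and urg1 the set1Δ level changed more, and in mug14 both changed, in opposite directions.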

How the results depend on the processing

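No call turned direction under the other scalings, tools, filters, thresholds, offsets, block or left-out libraries, whereas with other cells as the comparison some did (204 rises and 26 falls against lsd1-ΔHMG at 30°C, 3 rises and 69 falls against wild-type at 37°C). The number of features called stayed between 2061 and 2281 under the other scalings, tools, filters and offsets, was 2031 at an adjusted p below 0.0001, and was 471 at a log2 limit of 2, 254 higher and 217 lower, by its own construction. The share of calls that were higher was 64.6% in the fit reported, 59.6% with RLE size factors, 57.1% with upper-quartile factors, 56.8% with the offsets and 47.1% with only the 4 libraries compared. Without 1 set1Δ library it was 75.1% or 74.9%. Leaving out 1 library gave between 2210 and 2497 features called, 1430 to 1875 higher and 604 to 830 lower. Without the second set1Δ library no meiotic gene was lower, 1 nitrogen gene and 1 small nucleolar RNA were, and 2 MBF genes were higher. Without the first, the last 3 counts were the same and no amino acid gene was lower. Without the first wild-type library 2 MBF genes were higher and 2 heterochromatin factors were lower. Set against lsd1-ΔHMG cells at 30°C, 1340 features were lower, and the cause of the larger number was not tested.

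With the replicate number as a block (replicate block), 2255 features were called, and with the offsets as well 2061. Same-numbered libraries did not deviate together (correlation -0.00185), so the numbers were not taken as pairs. Genes that were not called changed sign in a few fits: lsd1 stood at -0.034 with only the 4 libraries, ade6 at -0.050 with the offsets and -0.050 with the block as well, and clr4 at -0.078 with only the 4 libraries, -0.24 with the offsets and -0.24 with the block as well. With 2 libraries per genotype, features with few reads carry large errors, as SPNCRNA.603 with its standard error of 0.59.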
